A study of Saccharomyces cerevisiae with 18 samples.

Results

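Of the 7126 genes listed, 65 stood at nearly the same level at 0 and 20 nM α-pheromone and rose at least 2-fold between 20 and 500 nM, in both of 2 experiments. Membership was set on y = log2(RPKM + 1), where RPKM is reads on a gene relative to its length and to the mapped reads of the library. Members were chosen by the measured values at 0, 20 and 500 nM. A member had y at 500 nM at least 1 above y at 20 nM, y at 20 nM within 0.5 of y at 0 nM, and a mean RPKM of at least 5 over all libraries. 5451 genes had that mean, 135 of them made the rise in both experiments, and 68 of those met the limit between 0 and 20 nM. Genes for tRNAs were left out, as were cell wall, chitin synthase, hexose transporter, heat shock and pheromone-regulated gene names that the rule lists. The calcium signalling genes *RCN1* and *CMK2* were also left out by name. Together this removed *SLT2*, *KDX1* and *CMK2*. These 3 genes rose from 20 to 500 nM by 2.04, 3.22 and 2.43 in y in experiment 1 and by 1.89, 3.20 and 2.23 in experiment 2. The values at those 3 doses are therefore given as a description. The tests below used libraries at other doses, which entered the rule through the mean RPKM alone.

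The RNA came from strain yAA95 of budding yeast, mating type **a**, grown in minimal medium with glucose and collected after 60 min of pheromone. All libraries, the mock-treated ones included, carry bar1delta::kanMX6 (loss of the protease that degrades α-pheromone), mfalpha1delta::SpHIS3 and mfalpha2delta::hphNT1 (loss of the pheromone genes), arg4delta::klTRP1 and the reporter plasmid pAA35 at ura3, which expresses Ubi(I)-sfGFP from the *FUS1* promoter, in a background the methods describe as lacking functional Kss1. The doses were 0, 1, 5, 10, 15, 20, 50, 100 and 500 nM in experiment 1. In experiment 2 they were 0, 0.05, 0.25, 1, 5, 10, 20, 50 and 500 nM. Every dose had a single library in an experiment, so that 100 nM was measured once. All cells come from 1 strain. The methods describe aliquots of a culture moved into separate flasks with pheromone, so the libraries of an experiment are not independent cultures. The p-values measure the spread between these libraries. Where doses are pooled, as in 50 and 100 nM against 1 to 15 nM, that spread includes differences between the pooled doses. Library totals ran from 4870000 mapped reads (500 nM, experiment 1) to 16660000, and the members' lowest values rest on 4 to 1298 reads (median 140.5). Defining *MAT***a** transcripts were present in every library (*STE2* at 452 to 1196 RPKM), whereas *STE3* of *MAT*α cells was at 1.17 to 4.20 RPKM, *SAG1* of *MAT*α cells at 6.03 to 24.0 RPKM and the deleted *BAR1* at 0.288 RPKM at most.

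In *MAT***a** cells, α-pheromone binds the receptor Ste2, and a heterotrimeric G protein passes the signal to a MAPK cascade that ends in Fus3. Fus3 activates the transcription factor Ste12, arrests the cell cycle and directs growth of the mating projection. Projection growth puts strain on the cell wall and admits calcium, and yeast answers these through the cell wall integrity MAPK Slt2, which acts on the factor Rlm1, and through the calcium-dependent phosphatase calcineurin, which acts on the factor Crz1. Msn2 and Msn4 are the general stress factors, which bind the stress response element.

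**Figure D1:**
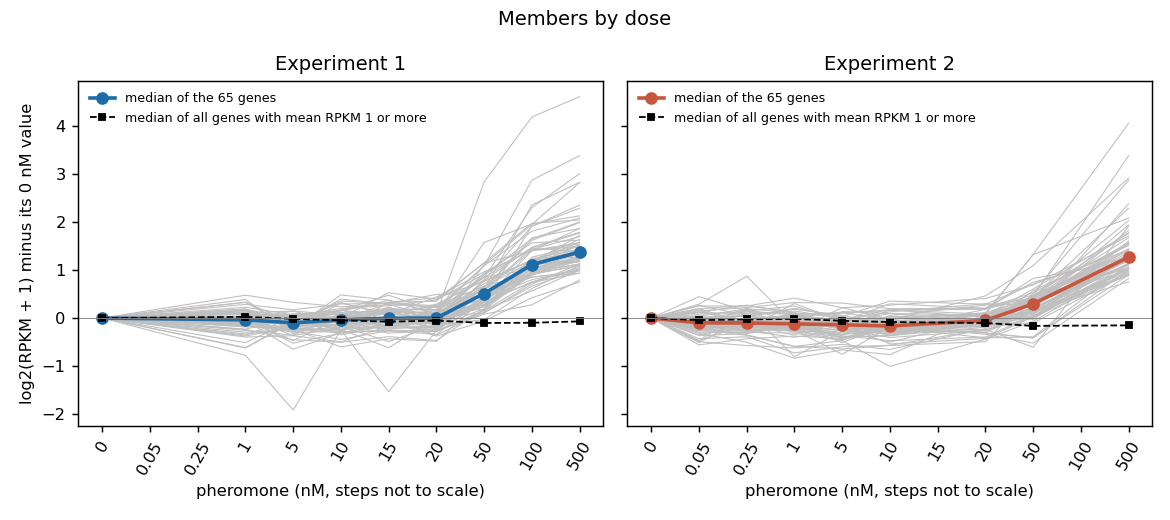
Each grey line is 1 of the 65 members, as log2(RPKM + 1) minus its value at 0 nM of the same experiment, against pheromone dose in nM (steps not to scale), with the members' median in colour and the median of all genes averaging 1 RPKM or more in black. The members' median stayed between -0.16 and 0.00 up to 20 nM and stood at 1.37 and 1.26 at 500 nM.

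Between 1 and 20 nM the members' median change from 0 nM lay between -0.10 and 0.00 in experiment 1 and between -0.16 and -0.05 in experiment 2, on the scale of y. It reached 0.51 at 50 nM, 1.11 at 100 nM and 1.37 at 500 nM in experiment 1, and 0.29 at 50 nM and 1.26 at 500 nM in experiment 2. The median over all genes at the same doses ran from -0.16 to -0.07. In experiment 1, 7 members were at least 2-fold above 0 nM at 50 nM, 43 at 100 nM and 58 at 500 nM. In experiment 2, 3 were so at 50 nM and 55 at 500 nM. These counts start from the 0 nM libraries, which the rule used, and those at 500 nM follow largely from the rule. The share of all genes at least 2-fold above 0 nM was not computed, so the counts are a description only. The members' median level before pheromone was 22.0 and 23.6 RPKM in experiments 1 and 2, against 40.3 and 38.3 RPKM for all genes averaging 5 RPKM or more.

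The mean rise from 20 to 500 nM ran from 1.03 to 4.24 in y (median 1.31), a value the rule itself set. Just inside its threshold, by the smaller rise of both experiments, were *SPC25* (1.00), *YOR034C-A* (1.02) and *SHE4* (1.02). Just outside were *PDE1* (0.998), *YET3* (0.995) and *PET8* (0.985). *SPC25* encodes a kinetochore protein of the Ndc80 complex and *SHE4* a myosin chaperone, while no role is annotated for *YOR034C-A*.

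By annotation the members belong to many parts of the cell, and the sorting into roles was made after their values had been seen. The 7 members grouped under calcium and ion transport are *PMC1*, *RCN2*, *RCH1*, *FLC2*, *ENA1*, *KHA1* and *PCA1*. Of these, *RCN2* encodes a calcineurin regulator and not a transporter, and is placed there for calcium. The 6 of the cell wall and its control are *PUN1*, *DFG5*, *KTR2*, *BAG7*, *MNT4* and *RCR1*, and the 5 kinases, phosphatases and their partners are *PTP2*, *YPK2*, *SSK22*, *PPM1* and *RTS3*. Vacuole, autophagy and membrane traffic have 6 members (*PRB1*, *ATG5*, *ATG19*, *ATG29*, *PEP12* and *GYP7*), lipids 5 (*ICT1*, *GPC1*, *GDE1*, *SCS3* and *CRG1*), and actin and endocytosis 4 (*ARK1*, *HUA1*, *SHE4* and *CSR2*). Transcription, mRNA and chromosomes account for 7 (*SRL3*, *SMP1*, *COM2*, *STB2*, *SPC25*, *NKP1* and *TIS11*) and metabolic enzymes for 9, among them *PGM1*. The endoplasmic reticulum and misfolded protein have 3 (*YET1*, *ADD37* and *IML2*), small membrane proteins 3 (*MNC1*, *CPP3* and *CPP2*), and 10 have no stated role.

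Promoters were read as the 300 bases before the coding start in the R64 genome, from RefSeq, for the 64 members with a locus in R64, and searched on both strands. The Crz1 motif GNGGCNCA was in 7 of the 64 member promoters (10.9%), against 3.77% of the 5221 genes averaging 5 RPKM or more. The Rlm1 motif, CTA and TAG with 4 bases between them, was in 6 (9.38%, against 5.59%). The sites below are those of members described in the following paragraphs, shown because these factors answer calcium and wall strain, with the motif in capitals.
*GYP7*, Crz1 motif, chrIV:36608-36635, minus strand: tatataaagaGAGGCGCAtttgcaagaa
*DFG5*, Crz1 motif, chrXIII:746104-746131, minus strand: tttttcgggcGTGGCTCAgattgtgaaa
*ICT1*, Crz1 motif, chrXII:341037-341064, minus strand: gatcattcttGTGGCACAaaagtataaa
*PMC1*, Crz1 motif, chrVII:485768-485795, minus strand: gtttttactgGAGGCGCAtgagtttttt
*SRL3*, Rlm1 motif, chrXI:611386-611415, plus strand: gaacaggagcCTAAGAATAGagaataagga
*CRG1*, Rlm1 motif, chrVIII:519282-519311, plus strand: tttccacgatCTATATTTAGcattctaatt
*KTR2*, Rlm1 motif, chrXI:557400-557429, plus strand: ttttgtctaaCTAATTATAGcattaataaa
*PTP2*, Rlm1 motif, chrXV:733873-733902, plus strand: atccccagtgCTATTAATAGtttacaataa
*ATG29*, Rlm1 motif, chrXVI:237202-237231, plus strand: ttcaagtacaCTATTTCTAGacgcactgca
These motifs begin between 42 bases (*PTP2*) and 267 bases (*KTR2*) before the coding start. The other Crz1 matches were upstream of *YOR385W*, *MNT4* and *YBR085C-A*, and the other Rlm1 match upstream of *PEP12*. The match of *PEP12* lies within the neighbouring gene *SHE4*, since the windows of 300 bases were not cut where another gene begins. Upstream of *YOR385W* and *YBR085C-A* a Crz1 match shares bases with the stress response element AGGGG, and the members holding each are counted under both.

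The stress response element AGGGG was the motif most often found, in 30 of the 64 member promoters (46.9%) against 22.4% of all genes. Of the members described below, *CPP3*, *CRG1*, *GYP7*, *PRB1*, *PTP2*, *PMC1*, *ATG19*, *ATG29* and *SHE4* hold it, *CPP3* at 3 places. The pheromone response element TGAAACA, bound by Ste12, was in 5 member promoters (7.81%, against 7.05%), those of *PUN1*, *RCN2*, *FLC2*, *YNL092W* and *YBR284W*. The shares were 15.6% against 15.0% for the SBF motif CNCGAAA, 4.69% against 3.70% for the MBF motif ACGCGT, 12.5% against 8.12% for the Yap1 motif TTAGTAA and 3.12% against 1.32% for the Rpn4 motif GGTGGCAAA. They were 9.38% against 13.2% for the heat shock element TTCNNGAA, 3.12% against 2.68% for the Gcn4 motif TGACTCA, 9.38% against 9.35% for the Tec1 motif CATTCC, and 0% against 0.172% for the Pdr1 and Pdr3 motif TCCGCGGA. A match is a run of letters, binding was not measured, and these shares carry no test.

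**Figure D2:**
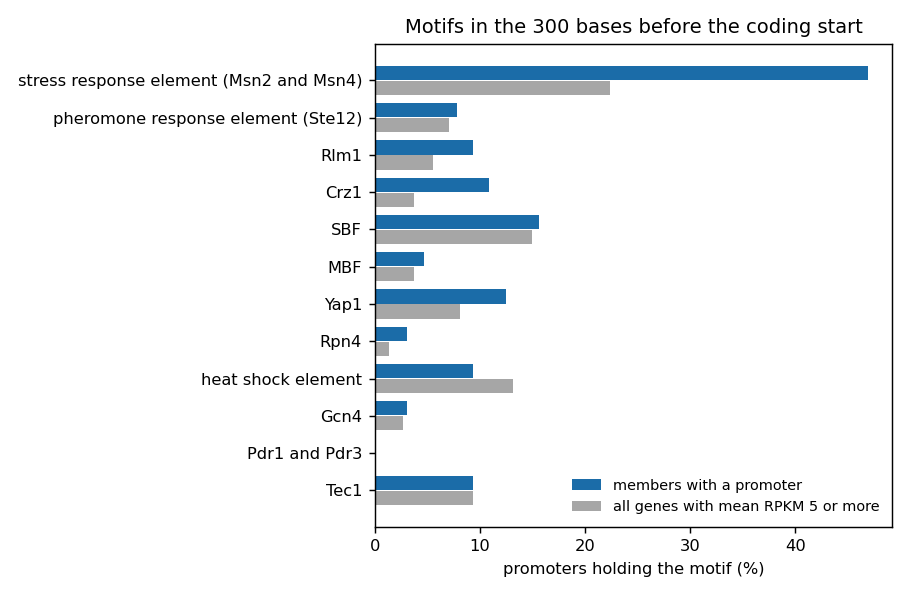
Bars give the percent of promoters (300 bases before the coding start) that hold each motif, for the 64 members with a promoter in blue and for the 5221 genes averaging 5 RPKM or more in grey. The stress response element stands at 46.9% against 22.4%, and the pheromone response element at 7.81% against 7.05%.

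The next comparison asked whether the members also rise in libraries that the rule did not use, between 1 to 15 nM (7 libraries) and 50 to 100 nM (3 libraries), with the experiment as a block. 54 of the 65 members were higher at 50 and 100 nM at an adjusted p under 0.05 (limma with Benjamini-Hochberg adjustment over 5995 genes), against 10.1% of all genes tested, and 0 were lower, against 24.2% of all genes. With a change of at least 2-fold besides, 12 members were higher, against 1.75% of all genes, and 0 lower, against 2.7%. The members' median difference was 0.70 on the log2 scale, with a range of 0.09 to 2.87, and the median of all genes was -0.08. All 65 differences were above 0, as were 2137 of the 5995 over all genes. All libraries at 50 and 100 nM were above those at 1 to 15 nM for 62 members in experiment 1 (15.9% of all genes), for 56 in experiment 2 (19.5%) and for 56 in both (11.2%).

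Within experiment 1 alone the members' median difference was 0.85 and all 65 were above 0, but 2 were called (0.217% of all genes). Within experiment 2 alone, which has 50 nM and no 100 nM library, the median was 0.44, 59 were above 0 and 2 were called (0.15% of all genes). At an unadjusted p under 0.05, 61 members were higher in experiment 1 (11.9% of all genes) and 34 in experiment 2 (4.9%). Without the 100 nM library the number at least 2-fold higher fell from 12 to 4, and without the 50 nM library of experiment 2 it was 21. In experiment 1, 65 of 65 members were higher at 100 than at 50 nM, against 54.7% of all genes, a comparison of 1 library with 1.

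**Figure D3:**
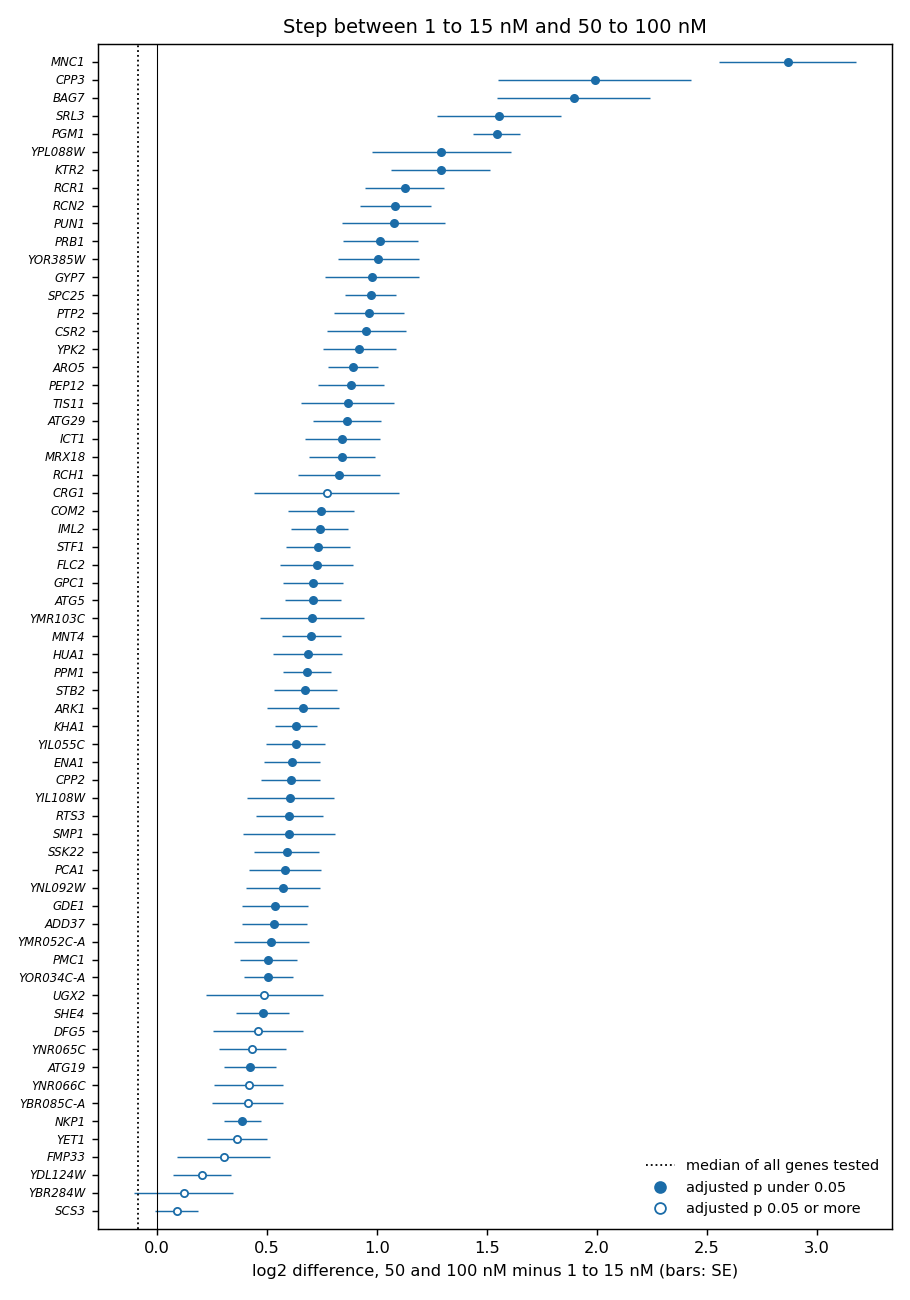
Points give the log2 difference of each member between 50 to 100 nM and 1 to 15 nM, with bars for the standard error, filled where the adjusted p is under 0.05 and open otherwise. 54 of the 65 points are filled, *MNC1* is farthest right at 2.87, and the dotted line marks the median of all genes at -0.08.

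The largest steps of the 65 members belonged to a pair of small membrane proteins. *MNC1* (YBR056W-A, chromosome II from 351255 to 351455), a putative membrane protein that heavy-metal ions are known to raise, was at 10.0 to 19.8 RPKM (median 12.9) in the libraries up to 20 nM, at 90.8 and 48.0 RPKM at 50 nM in experiments 1 and 2, at 233 RPKM at 100 nM, and at 312 and 323 RPKM at 500 nM. Its libraries at 50 and 100 nM were all higher than those at 1 to 15 nM in both experiments, as held for 11.2% of all genes. The difference between 50 to 100 nM and 1 to 15 nM was 2.87 (standard error 0.31, adjusted p = 0.00156). *CPP3* (YDR034W-B, chromosome IV from 521314 to 521469), a tail-anchored plasma membrane protein, was at 2.29 to 12.6 RPKM (median 9.33) up to 20 nM, 25.7 and 15.2 RPKM at 50 nM, 46.5 RPKM at 100 nM, and 86.1 and 123 RPKM at 500 nM. This short gene had the sparsest data of the members, with 4 reads in its lowest library, and it differed by 1.99 (standard error 0.44, adjusted p = 0.0104), or by 1.55 (adjusted p = 0.0505) without the 100 nM library. Its relative *CPP2* was more abundant and moved less, from 117 to 173 RPKM (median 145) up to 20 nM to 203 and 176 RPKM at 50 nM, 276 RPKM at 100 nM, and 342 and 351 RPKM at 500 nM. All 228 bases of *CPP2* lie opposite *YDR209C*, and the authors counted by strand.

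Of the 6 cell wall members 5 passed the test (83.1% of the members and 10.1% of all genes did), 4 of them with at least a 2-fold change (18.5% and 1.75%). *BAG7* (YOR134W, chromosome XV from 578564 to 579793), which encodes a GTPase-activating protein for Rho1, the switch upstream of Slt2, was at 3.48 to 8.47 RPKM (median 5.31) up to 20 nM, 12.4 and 12.6 RPKM at 50 nM, 45.0 RPKM at 100 nM, and 64.5 and 68.1 RPKM at 500 nM. Both experiments gave nearly the same level at 50 nM, above every library at 1 to 15 nM, and the test gave 1.89 (standard error 0.35, adjusted p = 0.00604). *PUN1* (YLR414C, chromosome XII from 953353 to 954144), a plasma membrane protein of cell wall integrity, was at 65.8 to 89.0 RPKM (median 76.9) up to 20 nM, 132 and 111 RPKM at 50 nM, 285 RPKM at 100 nM, and 387 and 405 RPKM at 500 nM. Its difference was 1.08 (standard error 0.23, adjusted p = 0.00993), and 0.68 without the 100 nM library. The mannosyltransferase gene *KTR2* was at 14.6 to 22.9 RPKM (median 17.7) up to 20 nM, 40.7 and 29.8 RPKM at 50 nM, 72.6 RPKM at 100 nM, and 76.1 and 71.8 RPKM at 500 nM. It stood at 96.1% of its rise at 100 nM, and differed by 1.29 (standard error 0.22, adjusted p = 0.00513). *RCR1*, whose product lowers chitin deposition through Chs3, was at 41.2 to 68.4 RPKM (median 55.4) up to 20 nM, 102 and 89.1 RPKM at 50 nM, 158 RPKM at 100 nM, and 165 and 180.0 RPKM at 500 nM. It had reached 96.4% of its rise at 100 nM and differed by 1.13 (standard error 0.18, adjusted p = 0.00397). *DFG5*, a GPI-anchored putative mannosidase, behaved otherwise, at 53.4 to 70.4 RPKM (median 62.3) up to 20 nM, 71.4 and 63.8 RPKM at 50 nM, 145 RPKM at 100 nM, and 178 and 194 RPKM at 500 nM. Its 50 nM library of experiment 2 lay within the range of the lower doses, and the test was not passed (0.46, standard error 0.21, adjusted p = 0.108). It differed by 0.11 without the 100 nM library (adjusted p = 0.443) and by 0.71 without the 50 nM library of experiment 2 (adjusted p = 0.0661).

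**Figure D4:**
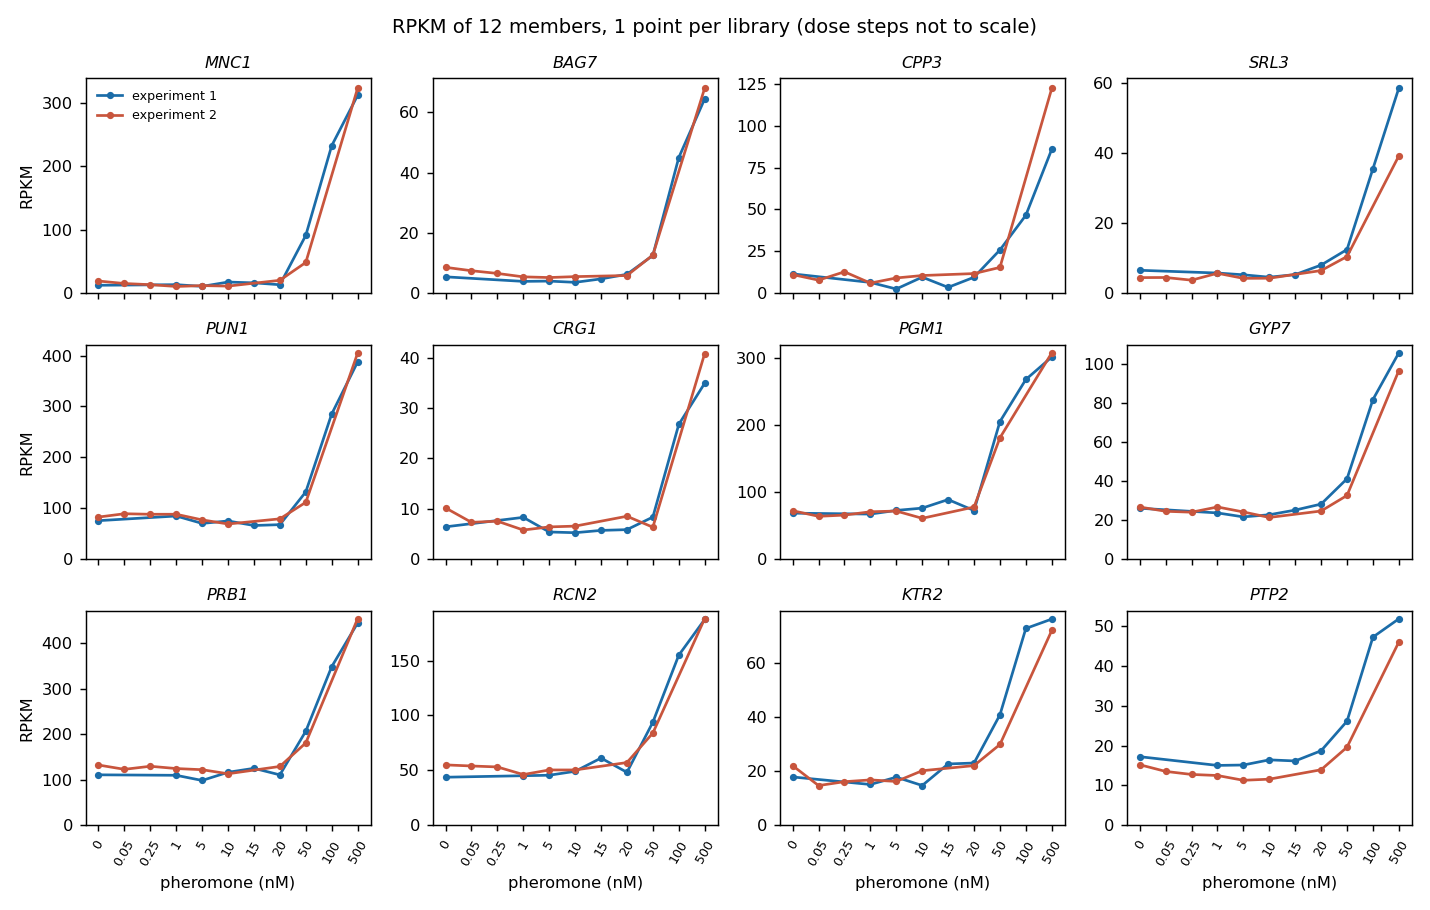
RPKM against pheromone dose in nM (steps not to scale) for 12 members, with 1 point per library, experiment 1 in blue and experiment 2 in red. The libraries up to 20 nM lie close together, as for *PGM1* at 60.7 to 88.6 RPKM, and the highest point of each panel is a 500 nM library.

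The 7 members of calcium and ion transport were called, with differences of 0.51 to 1.08, where 83.1% of the members and 10.1% of all genes were. *RCN2* (YOR220W, chromosome XV from 755328 to 756125), of the calcipressin family of calcineurin regulators, was at 43.7 to 61.1 RPKM (median 50.3) up to 20 nM, 93.9 and 84.0 RPKM at 50 nM, 155 RPKM at 100 nM, and 188 RPKM in both experiments at 500 nM. The difference was 1.08 (standard error 0.16, adjusted p = 0.00364). *PMC1*, the vacuolar calcium pump, was at 37.0 to 43.5 RPKM (median 39.9) up to 20 nM, 53.2 and 45.5 RPKM at 50 nM, 78.3 RPKM at 100 nM, and 88.5 and 88.0 RPKM at 500 nM. Its 50 nM libraries were above every library at 1 to 15 nM, and its difference was 0.51 (standard error 0.13, adjusted p = 0.0175), and 0.30 without the 100 nM library. *ENA1*, a sodium pump, was at 5.74 to 8.04 RPKM (median 7.48) up to 20 nM, 11.4 and 9.01 RPKM at 50 nM, 14.4 RPKM at 100 nM, and 16.1 and 16.7 RPKM at 500 nM (difference 0.61, adjusted p = 0.0089). It has near-identical neighbours, and how reads with several map positions were assigned is not given in the sources used here, so its level is uncertain.

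The 6 members of the vacuole, autophagy and membrane traffic were called as well, with differences of 0.42 to 1.02, again beside 83.1% of the members and 10.1% of all genes. *PRB1* (YEL060C, chromosome V from 40046 to 41953), vacuolar proteinase B, was at 98.3 to 132 RPKM (median 122) up to 20 nM, 207 and 181 RPKM at 50 nM, 348 RPKM at 100 nM, and 444 and 454 RPKM at 500 nM. The difference was 1.02 (standard error 0.17, adjusted p = 0.00467). *GYP7*, the GTPase-activating protein of the vacuolar Rab Ypt7, was at 21.3 to 28.2 RPKM (median 24.5) up to 20 nM, 41.2 and 32.6 RPKM at 50 nM, 81.9 RPKM at 100 nM, and 106 and 96.8 RPKM at 500 nM. Most of its rise came above 50 nM, as for most members, whose median share at 50 nM was 34.6% in experiment 1 and 24.4% in experiment 2. The difference of *GYP7* was 0.98 (standard error 0.21, adjusted p = 0.01), and 0.62 without the 100 nM library. Of the autophagy members, *ATG5*, part of the conjugation machinery, was at 22.4 to 31.7 RPKM (median 26.2) up to 20 nM and 61.1 and 75.4 RPKM at 500 nM. *ATG29*, of the initiation complex, was at 4.90 to 10.5 RPKM (median 7.58) and then 21.5 and 21.3 RPKM, and 24 of its bases lie opposite *SET6*. *ATG19*, the receptor of the Cvt pathway, was at 37.1 to 47.8 RPKM (median 43.7) and then 94.2 and 95.2 RPKM. Their differences were 0.71 (adjusted p = 0.00573), 0.86 (adjusted p = 0.00563) and 0.42 (adjusted p = 0.0231), so each autophagy member passed the test with less than a 2-fold change. Without the 100 nM library *ATG19* was at 0.23.

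Among the enzymes, *PGM1* (YKL127W, chromosome XI from 203541 to 205253), phosphoglucomutase, had the smallest adjusted p of the members. It was at 60.7 to 88.6 RPKM (median 71.5) up to 20 nM, 205 and 181 RPKM at 50 nM, 268 RPKM at 100 nM, and 301 and 307 RPKM at 500 nM. The difference was 1.54 (standard error 0.11, adjusted p = 0.000149). It had gone 72.9% and 61.4% of the way from 20 to 500 nM at 50 nM. *ICT1*, a lysophosphatidic acid acyltransferase, was at 16.8 to 34.8 RPKM (median 24.8) up to 20 nM, 36.3 and 33.2 RPKM at 50 nM, 62.7 RPKM at 100 nM, and 70.2 and 72.4 RPKM at 500 nM (difference 0.84, adjusted p = 0.00813). Its 50 nM library of experiment 2 was below its own 0 nM library, at 34.8 RPKM. *CRG1*, a methyltransferase of lipid homeostasis, was at 5.23 to 10.2 RPKM (median 6.40) up to 20 nM, 8.34 and 6.33 RPKM at 50 nM, 26.8 RPKM at 100 nM, and 35.0 and 40.9 RPKM at 500 nM. At 50 nM it was barely above the highest lower dose of experiment 1 (8.28 RPKM) and within the range of the lower doses of experiment 2. The test was not passed (0.77, standard error 0.33, adjusted p = 0.0966). It differed by 0.22 without the 100 nM library (adjusted p = 0.384), by 1.19 without the 50 nM library of experiment 2 (adjusted p = 0.0546), and by 0.95 under quantile normalization, where it passed (adjusted p = 0.037).

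*SRL3* (YKR091W, chromosome XI from 611525 to 612265), which encodes a repressor of cell cycle START that binds SBF, was at 3.61 to 7.94 RPKM (median 5.15) up to 20 nM, 12.4 and 10.4 RPKM at 50 nM, 35.5 RPKM at 100 nM, and 58.5 and 39.2 RPKM at 500 nM. The difference was 1.56 (standard error 0.28, adjusted p = 0.00581). *TIS11*, an mRNA-binding protein of iron starvation, was at 2.72 to 8.68 RPKM (median 5.38) up to 20 nM, 6.24 and 11.2 RPKM at 50 nM, 11.2 RPKM at 100 nM, and 15.3 and 20.1 RPKM at 500 nM. Its 50 nM library of experiment 1 was above the lower doses of that experiment (2.72 to 4.77 RPKM). It was below the highest library of the lower doses, which is of experiment 2. The difference with the experiment as a block was 0.87 (standard error 0.21, adjusted p = 0.0141). This call was lost without the 100 nM library (0.60, adjusted p = 0.0596) and without the block (0.79, adjusted p = 0.0876). *SPC25* was at 15.5 to 25.1 RPKM (median 20.3) up to 20 nM, 32.1 and 37.5 RPKM at 50 nM, 42.4 RPKM at 100 nM, and 49.1 and 48.4 RPKM at 500 nM (difference 0.97, adjusted p = 0.00214). *PTP2*, a phosphotyrosine phosphatase that acts on the MAPKs Hog1 and Fus3, was at 11.3 to 18.7 RPKM (median 15.0) up to 20 nM, 26.1 and 19.6 RPKM at 50 nM, 47.3 RPKM at 100 nM, and 51.9 and 46.0 RPKM at 500 nM. The difference was 0.97 (standard error 0.16, adjusted p = 0.00434). *SHE4* was at 23.9 to 30.3 RPKM up to 20 nM and 55.1 and 57.7 RPKM at 500 nM (difference 0.48, adjusted p = 0.0159), and *YOR034C-A* at 21.1 to 31.8 RPKM and then 53.5 and 49.0 RPKM (difference 0.51, adjusted p = 0.0101). Without the 100 nM library *SHE4* was at 0.33 (adjusted p = 0.0629), and without the 50 nM library of experiment 2 *YOR034C-A* was at 0.49 (adjusted p = 0.0509).

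By role, and beside 54 of 65 over the members and 10.1% of all genes, the step was called for 7 of 7 of calcium and ion transport, 6 of 6 of the vacuole, autophagy and traffic, 5 of 6 cell wall members, 5 of 5 kinases, phosphatases and partners, 3 of 5 lipid members, 4 of 4 of actin and endocytosis, 7 of 7 of transcription, mRNA and chromosomes, 7 of 9 metabolic enzymes, 2 of 3 of the endoplasmic reticulum and misfolded protein, 3 of 3 small membrane proteins and 5 of 10 without a stated role. The 11 members that did not pass were *CRG1*, *DFG5*, *UGX2*, *YNR065C*, *YNR066C*, *YBR085C-A*, *YET1*, *FMP33*, *YDL124W*, *YBR284W* and *SCS3*. Their differences ran from 0.09 (*SCS3*, adjusted p = 0.499) to 0.77 (*CRG1*), and their adjusted p from 0.0517 (*YNR065C*) to 0.702 (*YBR284W*).

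Members differed in how far they had risen at 50 nM. The share of the 20 to 500 nM rise in y reached at 50 nM ran from 1.82% to 72.9% in experiment 1 (median 34.6%) and from -17.5% to 64.3% in experiment 2 (median 24.4%). At 100 nM in experiment 1 it ran from 51.3% to 106% (median 82.5%). *PGM1* and *SPC25* were the members above 59% at 50 nM in both experiments, with *SPC25* at 59.9% and 64.3%. *MNC1* was at 60.7% and 31.2%, *BAG7* at 28.4% and 30.0%, *UGX2* at 1.82% and 1.42%, and *CRG1* at 18.8% and -17.5%. The denominators are values of the rule, and each share rests on 1 library per dose.

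**Figure D5:**
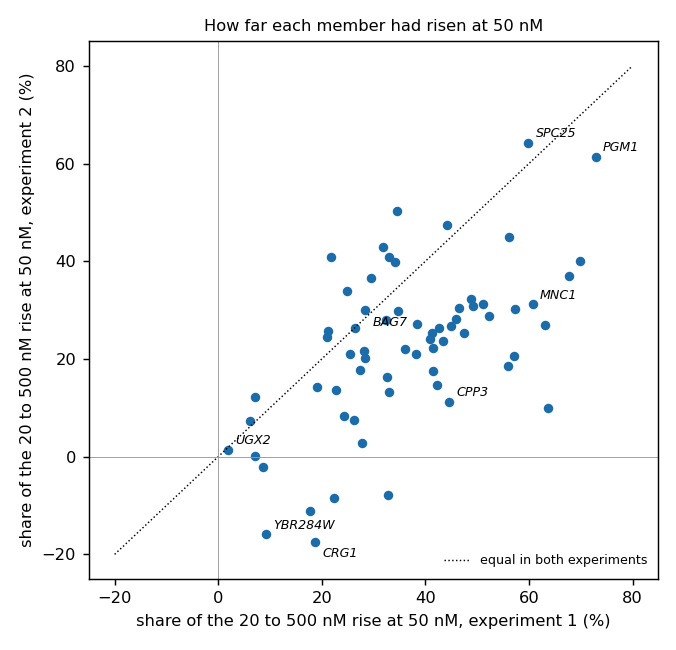
Each point is a member, placed by the percent of its rise in y from 20 to 500 nM that it had reached at 50 nM in experiment 1 (horizontal) and experiment 2 (vertical), with a dotted line where both are equal. *PGM1* (72.9% and 61.4%) and *SPC25* (59.9% and 64.3%) lie at the upper right and *CRG1* (18.8% and -17.5%) at the bottom.

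Whether the members already moved below 20 nM was asked with the libraries at 10 and 15 nM against those at 1 nM. 1 member was higher, *RCN2* (0.27, standard error 0.07, adjusted p = 0.0405), against 4.19% of all genes. 2 were lower, against 17.4% of all genes: *SHE4* (-0.27, adjusted p = 0.0437) and *PUN1* (-0.33, adjusted p = 0.0377). 10 of the 65 passed an unadjusted p under 0.05, against 36.5% of all genes. In its libraries at 1, 5 and 10 nM *RCN2* had 45.1, 45.5 and 49.1 RPKM in experiment 1 and 46.1, 50.3 and 50.3 RPKM in experiment 2, with 61.1 RPKM at 15 nM. 0 of the 3 calls remained without the 15 nM library or the 10 nM library of experiment 1, and 1 with either 1 nM library or the 10 nM library of experiment 2 left out. Under median centring 6 members were higher and 0 lower.

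The experiments differed for a few members at the doses 1, 5, 10 and 50 nM. *TIS11* was higher in experiment 2 (0.82, standard error 0.09, adjusted p = 0.0032), the 1 member against 4.52% of all genes. *YPK2* (-0.26), *FLC2* (-0.30), *PTP2* (-0.38, adjusted p = 0.00868) and *YIL055C* (-0.38) were lower in experiment 2, against 19.6% of all genes. With each library centred on its median, 7 members were higher and 2 lower, and under quantile normalization 3 and 2. For the step from 1, 5 and 10 nM to 50 nM, the difference between experiments passed for 0 members and 0% of all 5995 genes (limma). At an unadjusted p under 0.05 it passed for 3 members and 110 genes. The members' median of this difference was -0.16, with 12 of 65 above 0, against a median of -0.02 and 45.8% above 0 over all genes.

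Other genes of the members' pathways were compared over the same libraries. Of 18 genes tested among the targets and parts of calcineurin and Crz1, 12 were higher at 50 and 100 nM than at 1 to 15 nM and 0 lower (10.1% and 24.2% of all genes, for this and the following lists), with a median of 0.48 against -0.08 for all genes. They include 5 members (*PUN1*, *GYP7*, *RCN2*, *PMC1* and *ENA1*), and outside the members *GSC2*, an alternative glucan synthase (1.57, adjusted p = 0.00282), *CMK2*, a calmodulin-dependent kinase (1.32, adjusted p = 0.00511), and *MEP1*, an ammonium permease (0.76, adjusted p = 0.0017). Of these, *CMK2* met the values of the rule and was left out by name. *CRZ1* itself was at -0.15 (adjusted p = 0.137). Of 37 genes of the cell wall and its integrity pathway, 13 were higher and 6 lower (median 0.17), with *SLT2* at 1.44 (adjusted p = 0.00296), *MID2*, a wall stress sensor, at 1.46 (adjusted p = 0.00525), and *SVS1*, a wall protein gene, at -2.12 (adjusted p = 0.00717). *PUN1*, *KTR2*, *DFG5* and *CRG1* are the members on that list. *SLT2* and *KDX1*, also on it, met the values of the rule and were left out by name.

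Of 31 genes of autophagy and vacuolar proteases, 8 were higher and 3 lower (median 0.06), and 4 of the higher ones are members. *ATG8*, the ubiquitin-like protein of autophagosomes, was at 0.62 (adjusted p = 0.00835), *PEP4*, proteinase A, at 0.31 (adjusted p = 0.0107), and *APE1*, the aminopeptidase that Atg19 carries, was lower at -0.82 (adjusted p = 0.00914). On a list of 10 protein phosphatases, not all of them known to act on MAPKs, 2 were higher, *PTP2* and *MSG5* (1.27, adjusted p = 0.00333). *YVH1*, not an established MAPK phosphatase, was lower (-0.40, adjusted p = 0.00789). The pheromone pathway itself had 5 higher and 1 lower of 20 (median 0.17) and no member.

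The stress and reserve carbohydrate genes, many of them known targets of Msn2 and Msn4, had 6 higher and 8 lower of 50 (median -0.23), and none of them is a member. Counts of higher and lower genes were 4 and 3 of 20 for osmotic stress, 8 and 3 of 23 for chaperones, 4 and 1 of 22 for folding in the endoplasmic reticulum, 31 and 0 of 35 for the proteasome (median 0.24), 4 and 5 of 28 for oxidative stress, 2 and 5 of 19 for multidrug resistance, 2 and 11 of 24 for the iron regulon, and 4 and 8 of 36 for amino acid synthesis. Members among these are *ENA1* (osmotic stress), *ICT1* (multidrug resistance) and *TIS11* (iron). Centring each library on its median changed the counts over all genes from 608 higher and 1448 lower to 850 and 876, and quantile normalization to 864 and 984. The stress and reserve carbohydrate genes then had 9 higher and 7 lower, and 8 and 6, and amino acid synthesis 7 and 3, and 5 and 9. The medians of 3 lists changed sign with the scaling, oxidative stress to 0.005 and amino acid synthesis to 0.03 under median centring, and osmotic stress to 9e-04 under quantile normalization.

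The members lie on 15 chromosomes, with 9 on chromosome IV and 8 on chromosome XV. Some adjoin another member. *YOR034C-A*, *SHE4* and *PEP12* follow one another on chromosome XV, with gaps of 66 and 243 bases, and the first 2 of these share a strand. *YNR065C* and *YNR066C* are 24 bases apart on chromosome XIV, *YMR103C* and *YPK2* 155 bases apart on chromosome XIII, and *MRX18* and *MNC1* 1870 bases apart on chromosome II, each pair on 1 strand. Reads that run from one gene into the next on the same strand are not told apart by values per gene, and their part in the members' rise was not tested.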

How the data were processed

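The members and the gene lists were chosen with earlier results of these data known. The authors depleted ribosomal RNA, sequenced strand-specific single-end reads and deposited RPKM values per gene, scaled by the mapped reads of each library. The methods name Bowtie 2, the submitters' processing notes Bowtie 0.12.2 and sacCer3, and the annotation release is not given in the sources used here. From 7336 rows, 151 repeated gene names with identical values were kept once, and 6048 names matched R64 (RefSeq). Multiplied by gene length less 1 base, RPKM gave whole reads (within 0.05) for 99.5% to 99.9% of values up to 100 reads, which gave library totals with a median of 11455000. 1 library's label writes its dose as 0.05 nm, read here as 0.05 nM after the column name. For a gene of 1 kb, 3 reads are 0.180 to 0.616 RPKM, for counting error only.

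Genes averaging 1 RPKM or more were tested on log2(RPKM + 1), a scale that understates changes of low genes, with limma 3.58.1 in R 4.3.3 (eBayes with trend, Benjamini-Hochberg). On simulated data for 5539 genes and the comparison of 50 and 100 with 1 to 15 nM, 96 of 100 genes changed by 1.5-fold and 100 of 100 changed by 2-fold were recovered, with 9 false calls. The simulation gave all genes the same dispersion, no difference between experiments and the same fold at 50 and 100 nM. Its rates of recovery and of false calls therefore need not hold for these data. The experiment was a block, since each has its own mock-treated library, and the correlation of the experiments' deviations at different doses averaged 0.354 over 21 pairs of doses (0.178 to 0.466). The genes given in full are the 12 members with the largest rise, the 8 with the largest step and members on a list, where they have a symbol, and the 3 members just inside the threshold. The 3 genes just outside are given by their rise. Others named were chosen after their values were seen. The lists cover the pheromone pathway, phosphatases of MAPKs and some others, the cell wall, calcineurin, stress, osmotic stress, chaperones, endoplasmic reticulum folding, the proteasome, autophagy, oxidative stress, multidrug resistance, iron and amino acid synthesis. Other pseudocounts, filters, scalings, sets of libraries and limma-voom on the recovered reads were tried. Python 3.11.15 with numpy 2.4.6, pandas 2.3.3 and matplotlib 3.10.9 was used for the rule, motifs and figures.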

Additional observations from a re-analysis of the deposited data

Results flagged for a closer look

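In 3 of the 48 groups of libraries looked at, 1 library stood apart from the others of its group by Dixon's criterion, where chance alone gives about 1 in 20. *CRG1* was at 8.28 RPKM at 1 nM in experiment 1, above the other libraries at 1 to 15 nM, which ran from 5.23 to 6.54 RPKM. *RCN2* was at 43.7 RPKM in the mock-treated library of experiment 1, below the other libraries at 0.25 nM and under, at 53.1 to 54.9 RPKM. *RCN2* was at 61.1 RPKM at 15 nM in experiment 1, above the other libraries at 1 to 15 nM, at 45.1 to 50.3 RPKM. This is the highest dose of the group and its only library, so an effect of dose cannot be told apart either.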

How the results depend on the processing

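The number of members higher at 50 and 100 nM (54 as reported) ran from 2 to 55 with a library or an experiment left out, the 2 coming from either experiment alone, and was 51 with no replicate block and 53 with limma-voom. The number at least 2-fold higher (12) was 20 under quantile normalization, 6 with the doses used in both experiments only, 4 without 100 nM, and 2 to 21 with a library or an experiment left out. At 10 and 15 nM against 1 nM, the members higher (1) and lower (2) became 0 and 0 with no filter on RPKM, 6 and 0 with libraries centred on their median, 4 and 0 under quantile normalization, 0 and 0 with no replicate block, and 0 to 1 and 0 to 1 with a library left out. Between experiments, the members higher (1) and lower (4) became 7 and 2 under centring and 3 and 2 under quantile normalization. The rule in experiment 1 alone was met by 123 genes and in experiment 2 alone by 91, and with a pseudocount of 5 by 51, of which 41 are members. Of the step differences of the 24 members given in full, under the alternatives, 0 changed sign, 50 no longer passed the threshold, 3 passed it newly and 499 stayed on their side. 2 of those 3, for *CRG1* and *DFG5*, come from the fit of all 18 libraries, which includes those that chose the members, and support nothing. The cause of these changes was not tested, beyond the smaller number of libraries in each experiment alone. Depth limits most the short or low members such as *CPP3*, with 4 reads in its lowest library.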
